A study of Rattus norvegicus with 2 samples.

Results

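The wide Creb3l1 peaks were the 471 stretches of the rat genome, of 2063 in the deposited peak list, at which Creb3l1 enrichment extended over 200 bp or more. They were chosen by measured width alone, the end of a peak minus its start, on every chromosome and unplaced scaffold, and the 1592 peaks under 200 bp served as the comparison. The peaks came from 1 Creb3l1 chromatin immunoprecipitation (ChIP) library and 1 input library, which is the same kind of chromatin sequenced without an antibody. Both libraries were made from hypothalamic tissue of male Sprague Dawley rats that had gone without water for 72 hours, 9 animals pooled, and rats with free access to water were not analysed here. The tissue was punched from the supraoptic and paraventricular nuclei and was enriched for magnocellular neurones, so other cells of these punches contributed chromatin too. With 1 library of each kind there was no replicate error, no test between groups was possible, and all differences below are between peaks of a single library.

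Creb3l1 is a basic leucine zipper transcription factor that is made as a protein of the endoplasmic reticulum membrane. When the reticulum is under load, the protein is cut in the Golgi and its cytoplasmic part moves to the nucleus, where it binds DNA. Magnocellular neurones synthesise vasopressin and oxytocin in large amounts, and dehydration raises the demand for vasopressin, the hormone that makes the kidney retain water. A bound factor leaves a local pile of sequenced fragments around its site, and the width of a peak is the stretch over which that pile passes the significance limit of the peak caller, with short gaps joined. A deeper pile passes the limit over a longer stretch, so width and depth are linked by construction.

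Wide peaks made up 22.8% of the list (95% Wilson interval 21.1 to 24.7%) but 50.4% of the sequence covered by peaks, 165 kb against 163 kb in the narrow peaks. The shortest measured 200 bp and the longest 2531 bp, with a median of 296 bp and a middle range of 240.5 to 398 bp between quartiles, whereas the narrow peaks had a median of 94 bp. Most wide peaks were only moderately wide. There were 141 peaks under 250 bp, 98 from 250 to under 300 bp, 116 from 300 to under 400 bp and 53 from 400 to under 500 bp. A further 47 spanned 500 to under 750 bp, 11 spanned 750 to under 1000 bp and 5 were longer than 1 kb. The 116 peaks of 400 bp or more, 5.62% of the list, held 20.6% of the covered sequence. The median depth was the same on both sides of the threshold. The 18 peaks from 200 bp to 5 bp above it and the 11 peaks up to 5 bp below it each had a median of 25 extended reads (tags) at the summit, with ranges of 18 to 39 and 18 to 37, and their median folds were 5.77 and 6.13.

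The widest peak lay at chr1:148440829-148443359 and spanned 2531 bp, with its summit at 30.6% of the width. It had 53 tags at the summit (95% exact Poisson interval 39.7 to 69.3) and a fold enrichment over background of 9.55. The next, at chr3:154506883-154508290, spanned 1408 bp and had 56 tags and a fold of 8.40. The other 3 peaks above 1 kb were of similar length but not of similar depth. The 1040 bp peak at chr10:84915147-84916186 reached 54 tags and a fold of 13.4. In contrast, the 1032 bp peak at chr1:80630000-80631031 and the 1023 bp peak at chr1:219143790-219144812 had 32 and 31 tags (intervals 21.9 to 45.2 and 21.1 to 44.0), with folds of 9.61 and 9.32. Great width was found both at some of the deepest summits of the list and at summits close to the median of wide peaks.

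The remaining 5 of the 10 widest peaks spanned 915 to 982 bp. The peak at chr6:26241145-26242126 had 44 tags but a fold of only 6.64, over a background of 5 input tags. The peak at chr10:89352623-89353581 had 33 tags and a fold of 9.10, and that at chr6:111476505-111477452 had 52 tags and a fold of 15.4, the highest of the list. The last of the 10, at chr13:89707602-89708529 and chr1:199194297-199195211, had 39 and 36 tags with folds of 11.1 and 10.8. Of these 10 peaks, 4 lay on chromosome 1.

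Depth increased with width. Width and tags at the summit had a Spearman rank correlation of 0.54 over all 2063 peaks and of 0.40 within the 471 wide ones. This is a description across peaks of 1 library, since width and summit height are read from the same pile. Wide peaks had 16 to 59 tags at the summit with quartiles of 24, 29 and 35, and narrow peaks had 13 to 54 with quartiles of 18, 20 and 24. Within the wide peaks the median was 27 tags for widths of 200 to under 300 bp, 30 for 300 to under 400 bp and 35 for 400 bp or more. At least 40 tags were found at 63 wide peaks (13.4%) and at 19 narrow peaks (1.19%).

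**Figure D1:**
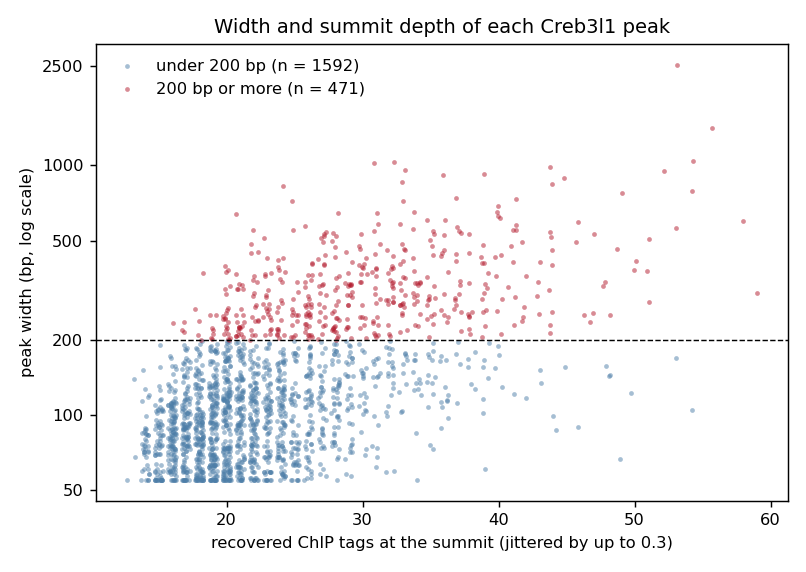
Each point is a peak, with the recovered ChIP tags at its summit on the horizontal axis and its width in bp on a logarithmic vertical axis. Wide peaks (471, above the dashed line at 200 bp) spread from 16 to 59 tags, and narrow peaks (1592) are crowded at 18 to 24 tags, with a row at the shortest width of 55 bp.

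The share of wide peaks rose in each step of summit depth. It was 1.11% (4 of 360 peaks, 95% Wilson interval 0.433 to 2.82%) at 13 to 17 tags, 6.87% (4.96 to 9.45%) at 18 to 20, and 16.8% (13.3 to 20.9%) at 21 to 23. It reached 26.8% (22.3 to 31.8%) at 24 to 27 tags, 44.7% (38.6 to 50.9%) at 28 to 32, 64.1% (57.0 to 70.7%) at 33 to 40 and 77.9% (66.7 to 86.2%) at 41 to 59. Depth did not fix the width, however. The most tags of any narrow peak, 54, were found in the 105 bp peak at chr1:180721414-180721518, where the input alone had 19 tags and the fold was 2.43. The next, at chr7:121462959-121463128, was 170 bp wide with 53 tags and a fold of 9.55, the same tags and fold as the widest peak of the list. At the other extreme, 4 wide peaks of 215 to 236 bp had only 16 or 17 tags, for example the one at chr20:37701289-37701523 with 16 (interval 9.15 to 26.0). These narrow and shallow peaks were singled out after their values were seen.

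**Figure D2:**
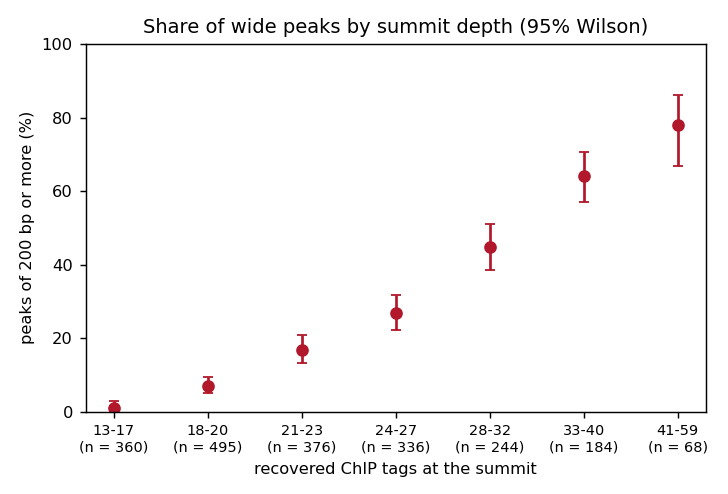
Share of peaks that were 200 bp or wider, in %, in 7 classes of recovered ChIP tags at the summit, with 95% Wilson intervals and the number of peaks in each class. The share climbs from 1.11% at 13 to 17 tags to 77.9% at 41 to 59 tags.

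Fold enrichment and significance followed the same order. The median fold of wide peaks was 7.33 (95% order-statistic interval 7.09 to 7.61) and that of narrow peaks 5.32 (5.26 to 5.51). A fold of 10 or more was given for 69 wide peaks (14.6%) and 28 narrow ones (1.76%). The median −log10 q-value was 11.7 for wide and 5.27 for narrow peaks. Of the wide peaks, 419 had q-values no higher than 1e-05 (89.0%, 95% Wilson interval 85.8 to 91.5%), and of the narrow peaks 813 (51.1%, 48.6 to 53.5%). Some wide peaks were nevertheless marginal. The 243 bp peak at chr16:20511440-20511682, with 20 tags over 5 input tags, had the lowest fold of the wide peaks, 3.11, and a −log10 q-value of 1.40, the lowest of the list, which some narrow peaks shared.

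The 5 wide peaks of highest fold were 308 to 948 bp long. After the chromosome 6 peak named above came chr1:265809527-265809990, 464 bp wide with 49 tags and a fold of 14.5 (counting interval 10.8 to 19.1). The peak at chr7:141629953-141630260 was only 308 bp wide but had the most tags, 59 (interval 44.9 to 76.1), and a fold of 14.4. Those at chr2:22798006-22798334 and chr7:3123280-3123785 were 329 and 506 bp wide, with folds of 14.2 and 13.9. The 5 intervals of fold overlapped, and these peaks could not be ranked. By tags, the second rank was held by the 597 bp peak at chr9:81783348-81783944 with 58, and the 789 bp peak at chr7:97944080-97944868 had 54 and a fold of 12.2.

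The summit, the position of greatest pileup, was spread more evenly along wide peaks than along narrow ones. Counted from the start of the peak on the reference strand, it lay at a median of 47.9% of the width in wide peaks (quartiles 27.1 and 67.6%) and 47.8% in narrow peaks (30.0 and 65.4%), so neither set leaned far to either side. The lower-coordinate side of the centre held 53.1% (48.6 to 57.5%) of wide summits. The distance from the centre differed more. Its median was 21.1% of the width (95% order-statistic interval 18.4 to 22.5%) in wide peaks and 17.7% (17.0 to 18.5%) in narrow ones, where an even spread would give 25%. By width class the wide medians were 22.9% (19.2 to 26.6%) from 200 to under 300 bp, 17.3% (14.8 to 21.8%) from 300 to under 400 bp and 21.0% (16.7 to 22.5%) above. The interval of the first class alone lay above the narrow median of 17.7%, and the intervals of the other 2 included it. The central 20% of the width held 22.7% of wide summits (19.2 to 26.7%) and 29.4% of narrow summits (27.2 to 31.7%). The difference was −6.68 percentage points (95% Newcombe interval −10.9 to −2.12), and it was −13.0 points when narrow peaks were weighted to the tags of the wide ones. Position was taken relative to the width, by which the 2 sets were chosen, and a tag of 55 bp fills much of a narrow peak. These differences are therefore not independent of the choice of the sets, and an even spread is only a yardstick.

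Summits were less frequent at the ends than under an even spread in both sets. A summit in the outermost 10% at either end, where an even spread would place 20% of summits, was found in 32 wide peaks (6.79%, 4.85 to 9.43%) and 92 narrow peaks (5.78%, 4.74 to 7.04%), a difference of 1.02 points with an interval of −1.30 to 3.85. Weighted to the tags of the wide peaks, the narrow share was 2.24% and the difference 4.55 points, with no interval computed. The weighted share rests on few summits, since only 4 of the 462 narrow peaks with 24 tags or more had one there. In bp, the summit of a wide peak lay at a median of 92 bp from the nearer end, and in narrow peaks at 29 bp. This distance is bounded by the width, by which the 2 sets were chosen.

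**Figure D3:**
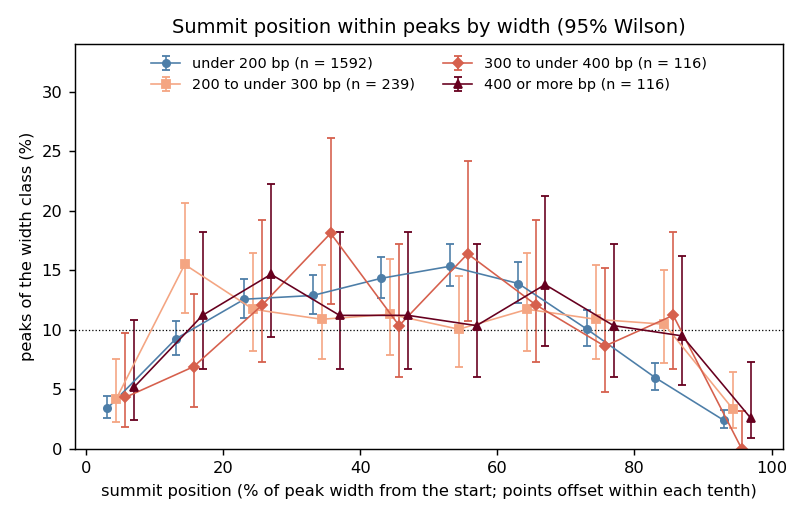
Share of peaks, in %, whose summit fell in each successive 10% of the peak's width, counted from the start, for 4 width classes with 95% Wilson intervals; the dotted line marks an even spread of 10%. Narrow peaks (1592) form a hump around the centre, while the 3 wide classes (239, 116 and 116 peaks) are flatter between 10 and 90% and scatter within their intervals.

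Summits at the ends were more frequent among wide peaks with 23 tags or fewer than among deeper ones. Among the 101 wide peaks with 23 tags or fewer, 19 had the summit in the outermost 10% at either end (18.8%, 12.4 to 27.5%), whereas among the 370 with 24 tags or more it was 13 (3.51%, 2.06 to 5.92%). This division was chosen after the values were seen. Narrow peaks were divided in the same direction, with 7.79% (6.36 to 9.50%) at 23 tags or fewer and 0.866% (0.337 to 2.20%) above. In wide peaks the share did not fall steadily with depth. It was 0 of 4 at 13 to 17 tags, 4 of 34 (11.8%, 4.67 to 26.6%) at 18 to 20 and 15 of 63 (23.8%, 15.0 to 35.6%) at 21 to 23. At 24 to 27 tags it was 7 of 90 (7.78%, 3.82 to 15.2%). Most of the 19 thus lay just below the division. The central 20% held 24.9% (20.7 to 29.5%) of the summits of the deeper wide peaks and 38.1% (33.8 to 42.6%) of those of the deeper narrow peaks. The 3 summits nearest to a start were those of chr14:60069505-60069856, chr1:80256933-80257211 and chr19:25219788-25220120, at 2.27, 2.51 and 3.30% of the width, with 24, 23 and 21 tags. The 3 nearest to an end were those of the chromosome 16 peak named above, at 97.1%, of chrX:155861938-155862174, at 95.8%, and of chr8:118525738-118526006, at 93.7%, with 20, 21 and 23 tags. In all 6 the tags lay below the wide median of 29.

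The input under wide peaks was compared through the background that the peak caller used. The pile is judged against background when the width is set, so background and width are also linked by construction. The differences are given as a description only. For 196 wide peaks (41.6%, 37.2 to 46.1%) the background was the input at the summit itself, against 548 narrow peaks (34.4%, 32.1 to 36.8%), a difference of 7.19 points (2.22 to 12.2). The genome-wide mean of 2.04 tags applied to 27.6% of wide peaks (23.8 to 31.8%) and 33.7% of narrow peaks (31.4 to 36.0%). A background of 5 tags or more was used at 38 wide peaks (8.07%, 5.93 to 10.9%) and 87 narrow peaks (5.46%, 4.45 to 6.69%). The highest among wide peaks, 8 input tags, belonged to chr7:144013509-144014126, which was 618 bp wide and had 40 ChIP tags and a fold of 4.03.

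The first 2 of these differences did not keep their sign when depth was taken into account, and the third was not weighted. When narrow peaks were weighted to the tags of the wide ones, 48.5% of them had the input at the summit as background, above the 41.6% of wide peaks. The genome-wide mean applied to 26.8% of them, about as many as the 27.6% of wide peaks. No interval was computed for the weighted shares. At 24 to 27 tags the input at the summit was the background of 26.7% of wide peaks (18.6 to 36.6%) and 47.2% of narrow peaks (41.0 to 53.4%). In the other 6 classes of depth the intervals of this share overlapped. The share with the input at the summit was higher at wide peaks in 2 of the 7 classes, and that with the genome-wide mean in 5. Where the genome-wide mean was the background, and fold depends on tags only, the 130 wide peaks had a median of 27 tags (26 to 29) and the 536 narrow peaks of 19 (19 to 20).

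Wide peaks were found on each of the 20 autosomes and on chromosome X. The autosomes held 467, from 8 on chromosome 14 to 87 on chromosome 1. Their share among the peaks of a chromosome was 22.9% over all autosomes (21.1 to 24.8%) and ranged from 14.5% on chromosome 17 (9 of 62 peaks, 7.83 to 25.3%) to 30.8% on chromosome 19 (16 of 52, 19.9 to 44.3%). On chromosome 1 it was 26.3% (21.8 to 31.3%) and on chromosome 10 it was 25.4% (19.5 to 32.5%). The intervals of all 20 autosomes included the pooled share, so no autosome stood apart in the proportion of its peaks that were wide.

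The number of wide peaks per Mb was uneven. It was 0.182 per Mb over the autosomes (95% exact Poisson interval 0.166 to 0.199), with the position of the last summit used as the length of a chromosome. Chromosome 10 had the highest density, 0.383 per Mb (0.277 to 0.516), and chromosomes 1 and 7, with 0.309 (0.248 to 0.382) and 0.261 (0.185 to 0.359), also lay above the pooled value. Chromosomes 14, 13 and 2 lay below it, with 0.0694 (0.0299 to 0.137), 0.0904 (0.0433 to 0.166) and 0.105 (0.0691 to 0.152). For the other 14 autosomes the interval included the pooled density. This unevenness was not particular to wide peaks. Chromosomes 10, 1 and 7 held 9.13, 18.5 and 8.07% of the wide peaks and 7.91, 15.3 and 8.10% of the narrow ones. Chromosomes 14, 13 and 2 held 1.70, 2.12 and 5.73% of the wide peaks and 2.83, 3.33 and 5.46% of the narrow ones.

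**Figure D4:**
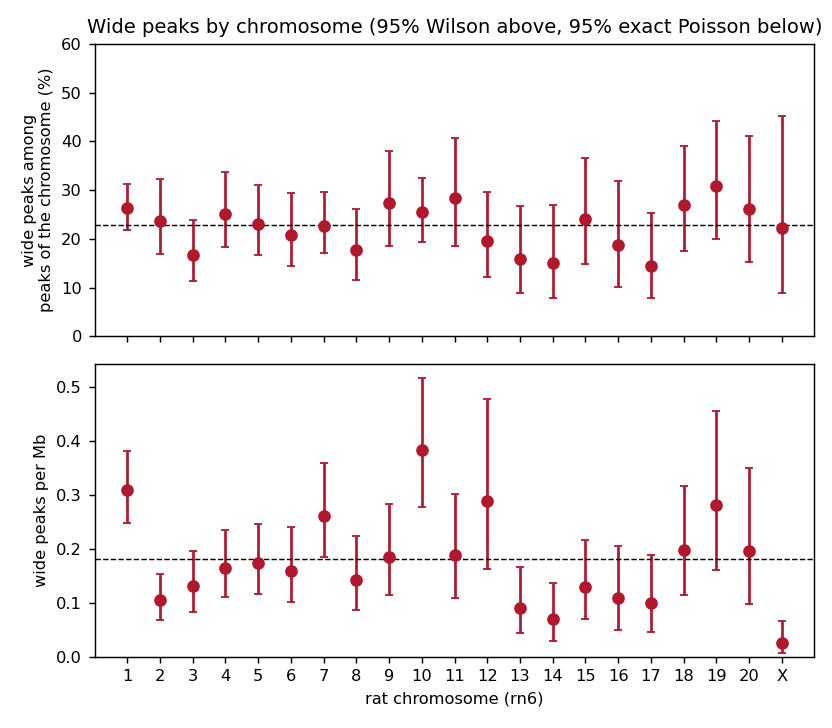
Wide peaks on the 20 autosomes and X of rn6. The upper panel gives their share among the peaks of each chromosome, in %, with 95% Wilson intervals, and the lower panel their number per Mb with 95% exact Poisson intervals; dashed lines are the pooled autosomal values, 22.9% and 0.182 per Mb. All autosomal shares overlap the dashed line, while the densities of chromosomes 1, 7 and 10 lie above it and those of 2, 13, 14 and X below.

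Chromosome X had 4 wide peaks among its 18 (22.2%, 9.00 to 45.2%), a share close to that of the autosomes, at 0.0257 per Mb, or 14.1% of the autosomal density (3.85 to 36.2%). Narrow peaks were as sparse there, since X held 0.849% of the wide and 0.879% of the narrow peaks. All 4 wide peaks on X had the genome-wide mean as background. The longest, at chrX:45420525-45421386, spanned 862 bp with 33 tags and a fold of 9.90. The others were chrX:71411814-71412093 with 27 tags, chrX:106652076-106652376 with 26, and the peak with a summit near its end named above, with 21. No wide peak was found on chromosome Y, which had 1 peak, or on the unplaced scaffolds, which had 5.

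Measured from edge to edge, wide peaks had close neighbours about as often as narrow ones. Another peak lay less than 300 bp away for 163 wide peaks (34.6%, 30.5 to 39.0%) and 537 narrow peaks (33.7%, 31.5 to 36.1%), a difference of 0.876 points with a 95% Newcombe interval of −3.90 to 5.84. Measured from summit to summit, which adds the length of the peaks to the gap, it was 15.7% of wide peaks (12.7 to 19.3%) and 26.1% of narrow peaks (24.0 to 28.3%), a difference of −10.4 points (−14.2 to −6.28). Among peaks with q-values no higher than 1e-05, edge to edge, it was 18.1% (14.7 to 22.1%) and 15.5% (13.2 to 18.1%). Beyond 300 bp from edge to edge few neighbours were met before 10 kb. The nearest peak was 300 bp to 1 kb away for 17 wide peaks (3.61%) and 1 to 10 kb away for 13 (2.76%), but 10 to 100 kb away for 101 (21.4%, 18.0 to 25.4%) and 100 kb to 1 Mb away for 134 (28.5%, 24.6 to 32.7%). Isolation by more than 1 Mb was seen for 43 wide peaks (9.13%, 6.85 to 12.1%) and 198 narrow peaks (12.4%, 10.9 to 14.1%). Without the close neighbours, the median gap was 129 kb from a wide peak (order-statistic interval 110 to 165 kb) and 164 kb from a narrow one (143 to 197 kb).

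**Figure D5:**
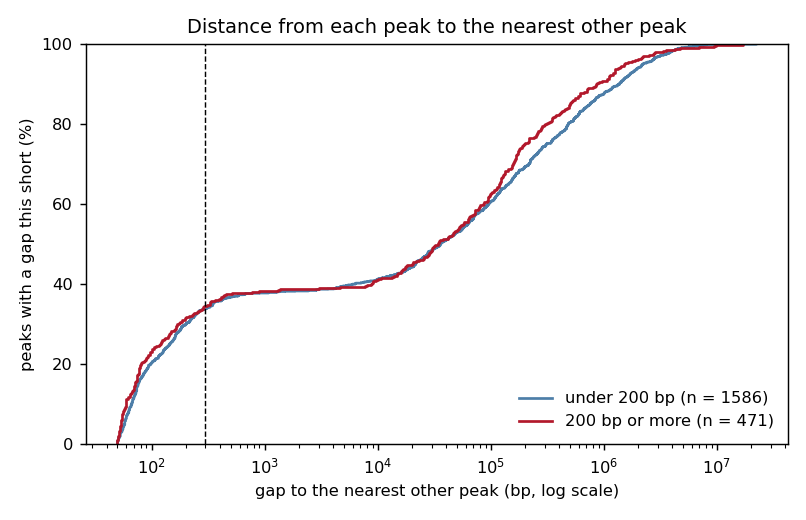
Cumulative share of peaks, in %, whose gap to the nearest other peak was at most the value on the logarithmic horizontal axis, in bp, for 471 wide peaks and the 1586 narrow peaks that had another peak on their chromosome; the dashed line marks 300 bp. Both curves reach about 34% at 300 bp, stay nearly level up to 10 kb and separate slightly above 100 kb, where the wide peaks run ahead.

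From edge to edge, neighbours on both sides were more frequent at wide peaks, 25 of 471 (5.31%, 3.62 to 7.72%) against 47 of 1592 (2.95%, 2.23 to 3.90%). The difference was 2.36 points (0.419 to 4.87). It was not recomputed from summit to summit, where the difference for any close neighbour was −10.4 points, nor weighted to tags. The interval treats peaks as independent, although close peaks share groups. Peaks less than 300 bp apart formed 314 groups, and 139 of these (44.3%, 38.9 to 49.8%) contained a wide peak. Wide peaks were 22.8% of all peaks, and each group had 2 to 4 members. A higher share for groups than for peaks follows from that, and no expected share was computed. In 118 groups there was a single wide peak with narrow companions, and in 21 there were 2 or 3 wide peaks. Groups with a wide peak extended over a median of 605 bp and at most 2806 bp, and groups without over a median of 324 bp. The groups were divided by the width of their members, so a longer extent of the first follows from the choice. Of the 386 adjoining pairs, 22 joined wide with wide, 144 wide with narrow and 220 narrow with narrow, with median gaps of 77, 77.5 and 88.5 bp. These counts were not compared with those that the overall share of wide peaks would give.

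In mixed pairs the wide member was usually the deeper. It had more tags than its narrow companion in 125 of 144 pairs (86.8%, 80.3 to 91.4%), fewer in 14 and equal numbers in 5, with medians of 30 and 19 tags. Width and depth are linked by construction, and the medians over all wide and all narrow peaks were 29 and 20 tags. The share of 86.8% is therefore no result about neighbours. The summit of a wide peak with a close neighbour on a single side lay in the part facing that neighbour in 75 of 138 cases (54.3%, 46.0 to 62.4%), and for narrow peaks in 230 of 490 (46.9%, 42.6 to 51.4%). Both intervals included 50%. Grouped and single wide peaks had like values. The median widths were 288 bp (270 to 324) and 300 bp (282 to 321), the median tags 29 and 30 and the median folds 7.33 and 7.37.

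Wide peaks came 3 together in 3 places, singled out after their values were seen. On chromosome 5 the group consisted of 3 wide peaks, chr5:136146709-136146978, chr5:136147103-136147439 and chr5:136147502-136147712, with 22, 34 and 19 tags, separated by 124 and 62 bp. On chromosome 1 the peaks at chr1:82108189-82108498, chr1:82108558-82108835 and chr1:82108896-82109164 had 29, 26 and 20 tags and gaps of 59 and 60 bp, with a narrow peak 129 bp further on. On chromosome 18 the peaks at chr18:74156145-74156370, chr18:74156429-74156642 and chr18:74156694-74156904 had 21, 44 and 23 tags, gaps of 58 and 51 bp, and a narrow peak after another 56 bp. The shortest gap in the list was 50 bp, so these groups lay near the limit below which adjoining stretches appear as 1 peak.

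Counted from wide peak to wide peak, spacing was longer, since the 1592 narrow peaks no longer count as neighbours. No other set of 471 peaks was compared. The nearest other wide peak was at a median of 560.2 kb, with quartiles of 111 and 2465 kb. Less than 300 bp separated 41 wide peaks from another, and less than 100 kb separated 114.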

How the data were processed

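The tissue was crosslinked with 1.6% formaldehyde for 20 minutes. Chromatin pooled from 9 rats was cut with micrococcal nuclease, and the lysate was then sonicated. A sequencing service mapped reads to rn6 and called peaks in the ChIP library against the input with MACS2 2.1.0. Bowtie is also named in the submitters' processing notes, with no version. The caller kept at most 1 tag per position. The stated reads are fewer than the tags in the caller's header, as when both mates of a pair are counted, so tags need not be independent molecules and the intervals cover counting error only. The deposited fold is a ratio of scaled ChIP pileup to background at the summit, and the authors' caller added 1 to each. The deposited −log10 p-values and q-values, also for the summit, were taken unchanged, and the deposited score, 10 times the −log10 q-value without its decimals in 100% of peaks, was not used. Library totals were not used here, and depth is given as tags at the summit.

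Tags and background were solved from fold and p-value by the Poisson formula of the caller. At a scale of 0.882 a whole number of tags gave the p-value of 100% of the 2063 peaks within 0.0002 on the −log10 scale, and the procedure was tested on simulated data. A tag was extended to 55 bp, read as the shortest peak width. Backgrounds were assigned to the genome-wide mean, the 1 kb or 10 kb window or the input at the summit by their steps.

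Shares carry 95% Wilson intervals, differences of shares Newcombe intervals, counts of tags exact Poisson intervals with the background held fixed, and medians order-statistic intervals (Python 3.11.15, SciPy 1.17.1, pandas 2.3.3). Distances run from edge to edge. The set, its descriptions and alternatives were chosen with earlier results of these data known. Peaks were named by a fixed rule: the 10 widest, the 5 of highest fold and the 5 with most tags, the 3 summits nearest to each end, the highest background, and those on X, Y and scaffolds. Others are said to have been chosen after their values were seen. Genes, motifs and sequences under the peaks were not analysed here, since the reference tables used another build.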

Additional observations from a re-analysis of the deposited data

How the results depend on the processing

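With a minimum width of 300 bp in place of 200 bp, the number of wide peaks fell from 471 to 232, their share of the covered sequence from 50.4% to 32.7%, and the medians rose to 32 tags and a fold of 8.01. With 150 bp the median fold was 6.85 and the share of wide peaks on chromosome 1 was 37.8%. These changes follow from the construction. Restricted to q-values of at most 1e-05, close neighbours were met by 18.1% of wide peaks in place of 34.6%, the median fold rose to 7.75 and the share on chromosome 1 to 38.2%; such a limit removes neighbours and shallow peaks. Measured from summit to summit, the share with a neighbour was 15.7%, and wide minus narrow became −10.4 percentage points in place of 0.876, a comparison added after the data were seen. Where the genome-wide mean was the background (130 wide peaks), the median was 27 tags. The median fold was 9.93 with a pseudocount of 0 and 8.74 with the genome-wide background at every peak.

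Weighting narrow peaks to the tags of wide ones, added after the data were seen, changed the sign of both background differences. The weighted differences had no interval of their own, so a change of sign alone does not show a difference in the other direction. Wide minus narrow became −6.91 percentage points in place of 7.19 for the input at the summit, and 0.840 in place of −6.07 for the genome-wide mean. It became 4.55 in place of 1.02 for summits in the outermost 10% at either end, and −13.0 in place of −6.68 for the central 20%. Of 43 alternative values, 25 stayed inside the interval of the value reported, or within a factor of 1.5 for counts and covered sequence. A further 16 moved and 2, the background differences, changed sign. Shares on the other 19 autosomes moved beyond their interval on 11 at q-values of at most 1e-05 and on 10 at 150 bp. The summit's distance from the centre stayed inside its interval under the 4 alternatives run. No paired analysis was possible because ChIP and input were each sequenced from a single pool, and for the same reason a replicate could not be dropped. A summit of 29 tags has a counting interval of 19.4 to 41.6, which limits any ranking of peaks.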
